A study of Mus musculus with 3 samples.

Results

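The collagen chains are the protein_coding genes whose symbol is Col, a number, a and a number, and 44 of the 54532 mouse genes in the tables met that rule, among 22046 protein_coding genes. By structural class there were 11 fibrillar chains, 8 basement membrane chains, 9 chains of the fibril-associated collagens with interrupted helices (FACIT) and 16 other chains, a class that held the beaded filament, network-forming, anchoring fibril and transmembrane collagens. Their RNA was compared in 3 libraries, 1 per condition. MICFs were cardiac fibroblasts of Myh6-mCherry mice, 8 weeks old at surgery, whose hearts were taken 5 days after myocardial infarction (MI), and which were then grown for 4 weeks without virus. GMTMS-iCMs were MICFs transduced with doxycycline-inducible Gata4, Mef2c, Tbx5, Myocd and Sall4, and GMTMM-iCMs were labelled as transduced with Gata4, Mef2c, Tbx5, Myocd and Mesp1. Both kinds of induced cardiomyocyte (iCM) were kept with doxycycline for the same 4 weeks, taken off the dish with trypsin and then collagenases, and sorted for mCherry. The reporter is driven by the Myh6 promoter, so the gate selected cells in which a cardiomyocyte promoter was active, and MICFs are not described as gated on it. For each cocktail 5 sorted samples were mixed before RNA extraction. No condition therefore had a replicate, no test across replicates could be made, and the intervals given are 95% Clopper-Pearson binomial intervals that cover counting error only.

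Collagens are proteins of the extracellular matrix built from chains wound into a helix. Fibrillar collagens form the tensile fibrils of the heart's interstitium and, after infarction, of the scar, and cardiac fibroblasts are their main source there. Basement membrane collagens form or anchor the sheets that surround cardiomyocytes, endothelial cells and smooth muscle cells. FACIT collagens sit on the surface of fibrils and link them to other matrix proteins. Many types are assembled from chains of several genes, and such partner chains have to be made by the same cell.

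Total counts were 11861773 for the untransduced MICFs and 10624118 for GMTMS-iCMs. The library labelled GMTMM held 11904484, and wherever 3 values stand together they follow this order. Sall4, which belongs to GMTMS, had 0, 1190 and 1060 counts, and Mesp1, which belongs to GMTMM, had 0 counts in each library. These counts go against the label GMTMM, so each direction drawn from that library carries this limit. Cardiomyocyte myosin Myh6 had 0, 14098 and 5149 counts. In sum 4 Y-linked genes had 0, 1630 and 1926 counts, so MICFs and the iCM libraries did not draw on the same set of animals. Each comparison against MICFs therefore also compares animals, and transduction cannot be told apart from donor or sex in it. Nor can it be told apart there from the mCherry gate, the collagenase step before sorting and the mixing of samples. None of these is described for the MICF library. The MICF library expressed fibroblast markers (Pdgfra at 17.7 FPKM, Thy1 at 44.7 FPKM), endothelial markers (Cdh5 at 204 FPKM) and macrophage markers (from Itgam at 12.0 and Ptprc at 13.7 FPKM to Csf1r at 307 and Lyz2 at 6135 FPKM), where FPKM are fragment counts divided by gene length and a library size factor. It was therefore not a library of fibroblast RNA alone, and the same holds for both iCM libraries, in which Lyz2 stood at 11353 and 5495 FPKM. Differences are on the log2 (quantile-normalized FPKM + 1) scale unless a fold is named, and a chain was taken as higher or lower when its difference was over 1. Folds are ratios of deposited FPKM.

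For the chains the results turn on, the 250 bases before the RefSeq transcript start are shown (GRCm38.p6, 5′ to 3′ on the strand of the gene), because Col3a1 and Col1a2 carried most fibrillar counts, Col18a1 had the largest deficit in GMTMS-iCMs and Col11a2 went the other way. The paired genes Col4a1 and Col4a2, which start 21 bases apart on opposite strands, are shown by 30 bases that run from upstream of the first base of Col4a2 to the first base of Col4a1. Capitals mark matches, on either strand, to CCAAT, to the GC box GGGCGG, to the TATA motif TATAAA, to the AP-1 motif TGANTCA and to the MCAT motif CATTCC of muscle gene promoters, and each run of capitals is 1 match.
Col3a1, chr1:45311288-45311537, plus strand: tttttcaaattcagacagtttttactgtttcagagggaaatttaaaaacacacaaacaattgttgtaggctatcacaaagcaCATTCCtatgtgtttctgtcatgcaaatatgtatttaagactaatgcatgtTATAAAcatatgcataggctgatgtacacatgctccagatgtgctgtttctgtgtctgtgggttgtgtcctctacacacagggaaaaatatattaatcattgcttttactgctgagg
Col1a2, chr6:4505368-4505617, plus strand: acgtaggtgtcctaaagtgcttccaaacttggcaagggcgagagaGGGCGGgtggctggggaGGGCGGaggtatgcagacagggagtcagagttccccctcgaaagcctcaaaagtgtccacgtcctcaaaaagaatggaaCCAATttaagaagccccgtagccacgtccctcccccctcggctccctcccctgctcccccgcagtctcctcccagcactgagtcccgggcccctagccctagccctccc
Col18a1, outer start, chr10:77166531-77166780, minus strand: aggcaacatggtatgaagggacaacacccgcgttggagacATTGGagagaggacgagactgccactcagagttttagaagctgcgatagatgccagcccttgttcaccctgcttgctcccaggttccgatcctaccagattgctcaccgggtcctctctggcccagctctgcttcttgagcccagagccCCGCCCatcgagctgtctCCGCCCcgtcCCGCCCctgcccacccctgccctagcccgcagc
Col18a1, inner start, chr10:77113706-77113955, minus strand: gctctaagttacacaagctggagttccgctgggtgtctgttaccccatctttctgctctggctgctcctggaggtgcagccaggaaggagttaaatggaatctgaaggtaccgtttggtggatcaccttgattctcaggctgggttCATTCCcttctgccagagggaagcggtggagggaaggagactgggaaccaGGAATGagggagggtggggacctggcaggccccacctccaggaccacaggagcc
Col11a2, chr17:34038888-34039137, plus strand: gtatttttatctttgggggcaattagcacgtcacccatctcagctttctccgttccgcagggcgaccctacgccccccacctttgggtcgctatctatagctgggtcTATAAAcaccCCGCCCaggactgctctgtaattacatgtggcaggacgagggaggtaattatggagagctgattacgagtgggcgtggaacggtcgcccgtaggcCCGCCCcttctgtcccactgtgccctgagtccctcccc
Col4a1 and Col4a2, around their starts, chr8:11312797-11312826, plus strand: ccctcggcagtgcgcGGGCGGcgtctccaa
RefSeq windows of 300 bases, 250 before and 50 after a start, were found for 35 of the 44 chains (38 windows), and none was found for Col1a1, Col2a1, Col4a3, Col5a2, Col9a3, Col12a1, Col14a1, Col22a1 and Col26a1. The GC box was in 23 of the 38 chain windows (60.5%) and in 35.7% of all 32851 windows. CCAAT was in 34.2% of the chain windows and 37.4% of all windows, TATAAA in 13.2% and 13.6%, CATTCC in 13.2% and 14.7%, and TGANTCA in 2.63% and 7.81%. Median GC content was 59.8% in the chain windows against 52.7% in all windows. The window of Col3a1 had the lowest GC content of the printed ones (37.7%), with a TATA motif and no GC box, whereas those of Col1a2 (61.0% GC) and of the outer Col18a1 start (63.3% GC) held GC boxes and CCAAT. Between the starts of Col4a1 and Col4a2 lay a GC box, and their windows, at 74.0% and 73.7% GC, shared 78 bases. The inner Col18a1 window held 2 MCAT matches and neither a GC box nor CCAAT. The RefSeq starts of Col1a2 and Col11a2 lie inside and upstream of the genes as the deposited tables bound them, so these windows need not be the starts in use here. A match is a run of letters only, and no protein binding was measured.

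Collagen chains made up 2.38% of the counts of MICFs (2.37 to 2.39), 0.236% of those of GMTMS-iCMs (0.233 to 0.239) and 3.33% of those of the library labelled GMTMM (3.32 to 3.34). GMTMS-iCMs thus devoted to collagen a share 10.1-fold smaller than MICFs and 14.1-fold smaller than the other sorted library. Without the 10 most abundant other genes of each library these folds were 9.82 and 13.6. Fewer collagen-making cells and less collagen RNA per cell cannot be told apart in such bulk libraries. Fibrillar chains took 1.35%, 0.138% and 2.02% of all counts, basement membrane chains 0.630%, 0.0481% and 0.670%, FACIT chains 0.0915%, 0.00919% and 0.0947%, and the other chains 0.312%, 0.0402% and 0.544%. Each class was lowest in GMTMS-iCMs. The make-up of the collagen RNA varied less than its amount. Of the summed collagen FPKM, fibrillar chains held 48.7%, 51.3% and 52.5%, basement membrane chains 30.2%, 23.0% and 22.7%, FACIT chains 4.27%, 4.21% and 3.11%, and the other chains 16.8%, 21.4% and 21.6%. Type III collagen (Col3a1) alone gave 26.4%, 20.9% and 23.9% of the collagen FPKM and Col1a1 gave 11.3%, 15.9% and 15.5%.

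**Figure D1:**
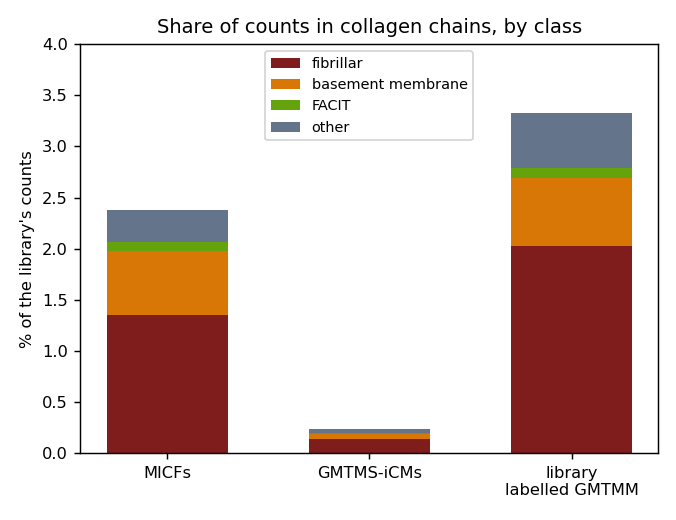
Share of each library's counts (vertical axis, percent) that fell in collagen chains, stacked by class, with 1 bar a library (MICFs, GMTMS-iCMs, library labelled GMTMM). The bars reach 2.38%, 0.236% and 3.33%, and fibrillar chains are the largest part of each.

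Of the 44 chains, 19 (43.2%) were lower and 2 (4.55%) were higher in GMTMS-iCMs by the limit of 1, against MICFs, where 2.72% of all genes were lower and 3.13% were higher. Among protein_coding genes 5.73% were lower and 5.13% were higher. The median difference over the 44 chains was -0.29 against 0.00 over all genes. By class, 6 of 11 fibrillar, 5 of 8 basement membrane, 6 of 16 other and 2 of 9 FACIT chains were lower. The classes held 10, 8, 9 and 6 chains with over 10 counts in a library, in the same order, and the rest were too scarce to be lower by 1. Over all genes with such counts 8.80% were lower. Some of these chains were themselves under 1 on the log2 scale in MICFs and so could not be lower by 1. They were Col11a1, Col11a2, Col24a1, Col4a3, Col4a4, Col20a1, Col9a3, Col22a1 and Col7a1, and this floor bounds the counts by class. All 19 lower and both higher chains were also past 1 in the 4 other scalings tried (no quantile normalization, edgeR's TMM, DESeq2 size factors and CPM of the library total). The deposited FPKM already carried DESeq2 size factors. No quantile normalization and DESeq2 size factors therefore scale the libraries alike, and differ in whether 1 is added to FPKM or to scaled counts. Tallies over the 4 scalings given below are thus not over 4 separate ones, and for scarce chains they also reflect the pseudocount. The summed FPKM of the 6 fibroblast markers was 194, 33.5 and 394, that of the 10 endothelial markers 529, 13.7 and 378, and that of the 8 macrophage markers 8568, 16622 and 7784. In sum the fibroblast markers had the same order of libraries as the collagen share. Their differences between GMTMS-iCMs and MICFs were -3.66 for Thy1, -3.37 for Tcf21 and -2.20 for Pdgfra, and Pi16 had 7, 6 and 37 counts. Between the library labelled GMTMM and MICFs, Thy1 and Tcf21 differed by -0.06 and -0.17 and Pdgfra by 0.25. On the log2 scale the order thus did not hold for each marker, but for Thy1 and Tcf21 this depended on the scaling. Deposited FPKM were 44.7, 3.38 and 60.7 for Thy1 and 26.3, 1.97 and 30.0 for Tcf21, the same order as the collagen share. By CPM of the library total Thy1 kept that order (162, 8.85 and 178) and Tcf21 did not (75.0, 4.05 and 69.1). Pi16, at 0.122, 0.162 and 0.794 FPKM, did not have that order either. Endothelial markers were lowest in GMTMS-iCMs like the collagen chains, but were below MICFs in the library labelled GMTMM. The part of these cells in the collagen differences was not tested.

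**Figure D2:**
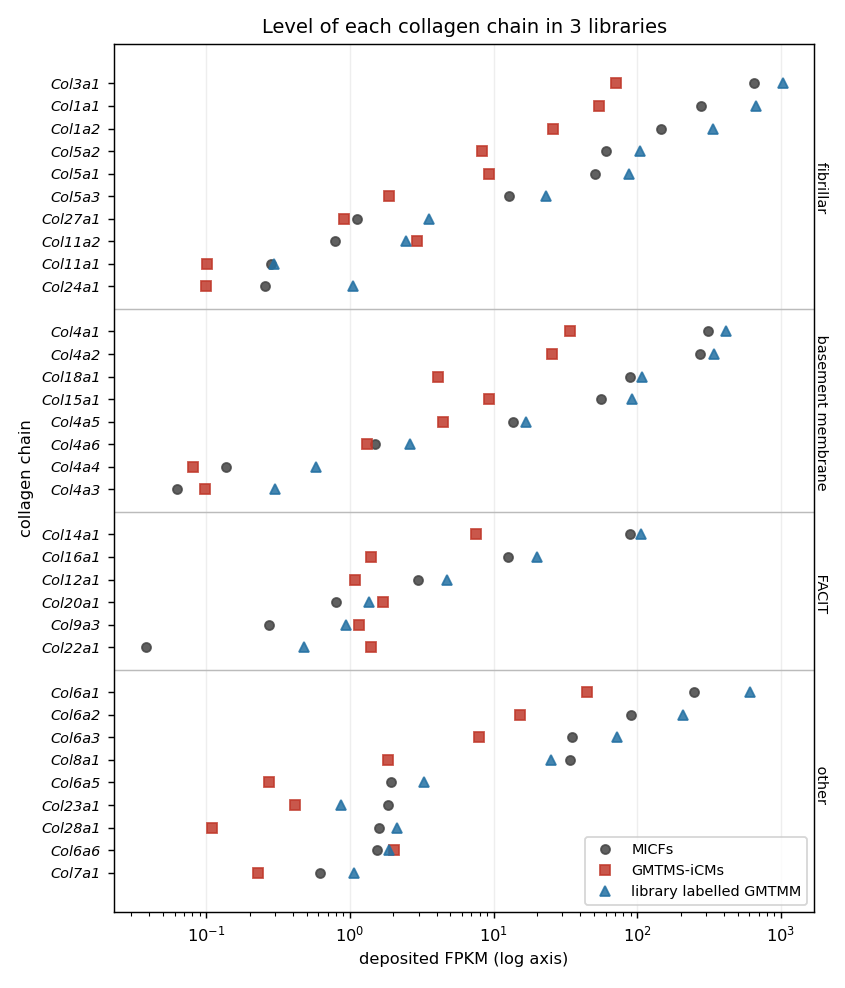
Deposited FPKM (horizontal log axis) of the 33 collagen chains with over 10 counts in a library, 1 chain per line and grouped by class, with 1 point for each of MICFs (circles), GMTMS-iCMs (squares) and the library labelled GMTMM (triangles). Squares lie to the left of the circles for the abundant chains of each class, while Col11a2, Col4a3, Col20a1, Col9a3, Col22a1 and Col6a6 have squares to the right.

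Among the fibrillar chains, Col3a1 (ENSMUSG00000026043, chromosome 1 from 45311538 to 45349706), the chain of type III collagen in extensible tissue, was the most abundant collagen of each library. It had 91516, 6501 and 117523 counts, or 648, 71.3 and 1025 FPKM, and ranked 30th, 748th and 26th of all genes by FPKM. Its FPKM in GMTMS-iCMs was 9.09-fold lower than in MICFs (8.86 to 9.32). Col1a1 (ENSMUSG00000001506, chromosome 11 from 94936224 to 94953042), a chain of type I collagen and the main fibril of scar, had 26135, 3306 and 50948 counts, which is 277, 54.2 and 665 FPKM. It was 5.10-fold lower in GMTMS-iCMs than in MICFs (4.92 to 5.29). The other type I chain, Col1a2 (ENSMUSG00000029661, chromosome 6 from 4504814 to 4541544), had 26165, 3001 and 49083 counts and was 5.63-fold lower (5.42 to 5.85). In GMTMS-iCMs type III collagen was thus lower by a larger factor than type I, and the intervals did not meet. Type V collagen starts and sizes the fibrils that type I fills. Its chains had 6171, 726 and 8625 counts (Col5a1), 8393, 734 and 11770 (Col5a2) and 1259, 118 and 1835 (Col5a3), and they were 5.49-fold, 7.38-fold and 6.89-fold lower in GMTMS-iCMs than in MICFs. For these 6 chains GMTMS-iCMs was the lowest library and the one labelled GMTMM the highest, on the deposited FPKM.

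The minor fibrillar chains, most of them known from cartilage and bone, were scarcer and went in both directions. Col11a2 (ENSMUSG00000024330, chromosome 17 from 34039437 to 34066685), a chain of the type XI collagen of cartilage, had 77, 185 and 195 counts, or 0.783, 2.92 and 2.44 FPKM. It was higher in GMTMS-iCMs than in MICFs by 1.25 on the log2 scale, or 3.72-fold (2.84 to 4.92). Its partner Col11a1 had 52, 12 and 44 counts and was 2.80-fold lower in GMTMS-iCMs (1.47 to 5.76). At 0.36 on the log2 scale in MICFs it could not be lower by 1, and its difference of -0.21 was under -1 in 3 of the 4 other scalings (down to -1.45). Col27a1 had 211, 110 and 538 counts, with a difference of -0.06 between GMTMS-iCMs and MICFs and of 1.09 between the library labelled GMTMM and MICFs. In that library it was 3.14-fold higher (2.67 to 3.70). Col24a1, of developing bone, had 28, 7 and 94 counts. It was 2.58-fold lower in GMTMS-iCMs than in MICFs (1.10 to 7.00) and 4.14-fold higher in the library labelled GMTMM (2.69 to 6.55). Its differences of -0.19 and 0.69 did not pass 1, but were past it in 3 of the 4 other scalings (down to -1.27 and up to 2.00), and at 0.33 in MICFs it too could not be lower by 1. Col2a1, the main collagen of cartilage, had 0, 4 and 4 counts. The 6 cartilage and bone markers summed to 4.53, 1.64 and 7.62 FPKM, most of it Sox9 at 3.46, 0.89 and 5.13 FPKM, and Ibsp was at 0 in each library. They did not go one way: Sox9 (206, 34 and 248 counts) and Runx2 (127, 41 and 194 counts) were lowest in GMTMS-iCMs, whereas the cartilage proteoglycan Acan had 3, 13 and 41 counts. Their part in the values of these chains was not tested.

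Basement membrane chains held both large deficits and chains with hardly any difference. Col18a1 (ENSMUSG00000001435, chromosome 10 from 77052178 to 77166548), whose protein is the source of the angiogenesis inhibitor endostatin, had 8974, 265 and 8883 counts, or 88.8, 4.06 and 108 FPKM. Its difference of -4.52 between GMTMS-iCMs and MICFs was the most negative of the 44 chains, and its FPKM was 21.9-fold lower (19.3 to 24.8). Col4a1 (ENSMUSG00000031502, chromosome 8 from 11198423 to 11312826) and Col4a2 (ENSMUSG00000031503, chromosome 8 from 11312805 to 11449287) code for the type IV network found in nearly all basement membranes. Col4a1 had 33205, 2335 and 35980 counts and was 9.18-fold lower in GMTMS-iCMs (8.80 to 9.58). Col4a2 had 25906, 1566 and 26347 counts and was 10.7-fold lower (10.1 to 11.2). Col15a1, a relative of Col18a1 found in muscle and vessel basement membranes, had 5081, 550 and 6847 counts and was 5.96-fold lower (5.46 to 6.52).

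The remaining type IV chains were scarcer. X-linked Col4a5 had 1326, 275 and 1315 counts and a difference of -1.54 between GMTMS-iCMs and MICFs, a 3.11-fold lower FPKM (2.73 to 3.56). Its neighbour Col4a6, also X-linked, had 170, 97 and 245 counts and a difference of 0.02, with a sign that turned under the other scalings. As given above, 4 Y-linked genes had 0, 1630 and 1926 counts in sum, so Y-linked RNA was detected in both sorted libraries and not in MICFs. The part of the animals' sex in the values of these X-linked chains was not tested. Col4a3 (9, 9 and 35 counts) and Col4a4 (21, 8 and 72 counts), chains of the kidney filter's type IV network, differed between GMTMS-iCMs and MICFs by 0.06 and -0.07. At 0.09 and 0.19 on the log2 scale in MICFs, neither could be lower by 1. Exons of a gene on the opposite strand cover 5.65% of the exon bases of Col4a3, and whether counting used strand is not given in the sources used here. Endothelial cells make much of the type IV and type XVIII collagen of the heart, and 10 of 10 endothelial markers were past -1 in GMTMS-iCMs against MICFs, with none at 0 counts. Their median difference was -4.81, led by Cdh5 (12354, 157 and 7239 counts) and Sox18 (901, 1 and 155 counts), with Tek (584, 68 and 471 counts) and Kdr (1236, 176 and 453 counts) nearest to 0, and their part in the deficit of Col18a1, Col4a1 and Col4a2 was not tested.

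FACIT chains went in both directions. Col14a1 (ENSMUSG00000022371, chromosome 15 from 55307750 to 55520803), which coats fibrils in mature connective tissue, had 8906, 491 and 8675 counts, or 88.3, 7.54 and 106 FPKM, and was 11.7-fold lower in GMTMS-iCMs than in MICFs (10.7 to 12.8). Col16a1 had 1212, 87 and 1582 counts and was 8.99-fold lower (7.23 to 11.3). Col12a1, of tendon and other tissues under load, had 647, 154 and 841 counts and a difference of -0.81, which did not pass 1 although its FPKM was 2.71-fold lower (2.27 to 3.25) and it was under -1 in 3 of the 4 other scalings. Col22a1 (ENSMUSG00000079022, chromosome 15 from 71795795 to 72034227), found at tissue junctions such as those of muscle and tendon, went the other way with 5, 119 and 51 counts, or 0.0378, 1.39 and 0.474 FPKM. It was higher in GMTMS-iCMs than in MICFs by 1.28 on the log2 scale, and 36.9-fold on the FPKM (15.4 to 116), a wide interval that rests on 5 counts in MICFs. The difference of 0.48 between the library labelled GMTMM and MICFs did not pass 1, although the FPKM was 12.6-fold higher (5.05 to 40.3) and the difference was over 1 in 3 of the 4 other scalings. Col9a3, a chain of cartilage type IX, had 15, 41 and 42 counts and was 4.23-fold higher in GMTMS-iCMs than in MICFs (2.29 to 8.24) and 3.45-fold higher in the library labelled GMTMM (1.87 to 6.70). Its differences of 0.82 and 0.59 were over 1 in 3 and 2 of the 4 other scalings (up to 1.99 and 1.70), and exons of Tcfl5, on the opposite strand, cover 6.07% of its exon bases. Col20a1 had 59, 81 and 82 counts with differences of 0.69 (over 1 in 1 other scaling) and 0.41. The 8 cardiomyocyte markers, each past 1 in GMTMS-iCMs against MICFs, had a summed FPKM of 39.8, 1558 and 606, the same order of libraries as Col22a1. That order is not particular to Col22a1, since the FPKM of Col9a3, Col20a1, Col11a2 and Col6a6 had it too. By counts the cardiomyocyte markers ran from Atp2a2 (3275, 8450 and 5952) and Ryr2 (0, 1570 and 763) to Actc1 (1, 4765 and 2313) and Myl7 (0, 3507 and 1708), the last with the highest difference. Col22a1 was chosen for this remark after its values were seen, and the part of cardiomyocyte RNA in it was not tested.

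Among the other chains, the type VI collagens, which form beaded filaments around cells, were the most abundant. Col6a1 (ENSMUSG00000001119, chromosome 10 from 76708792 to 76726168) had 15566, 1821 and 31345 counts, or 247, 44.8 and 613 FPKM, and was 5.52-fold lower in GMTMS-iCMs than in MICFs (5.26 to 5.80). Col6a2 had 10736, 1177 and 20223 counts and was 5.89-fold lower (5.54 to 6.26). Col6a3 had 6070, 883 and 10038 counts and was 4.44-fold lower (4.13 to 4.77). The chains that can take the place of Col6a3 differed from each other: Col6a5 (260, 24 and 357 counts) had a difference of -1.11, Col6a6 (203, 173 and 200 counts) one of 0.40 with a sign that turned under another scaling, and Col6a4 had 5, 2 and 3 counts. Col8a1 (ENSMUSG00000068196, chromosome 16 from 57624258 to 57754737), a short network-forming chain of vessel walls, had 3854, 133 and 2305 counts, or 34.2, 1.83 and 25.2 FPKM, and was 18.7-fold lower in GMTMS-iCMs than in MICFs (15.7 to 22.4). Only Col18a1 was lower by a larger fold among chains with over 10 counts in each of the compared libraries. Col28a1, a collagen known from peripheral nerve, had 112, 5 and 122 counts and a difference of -1.15, and the 4 Schwann cell markers, too scarce to be lower by 1, together had 32, 7 and 27 counts, among them S100b with 10, 0 and 12. Their part in it was not tested. The transmembrane chain Col23a1 had 151, 22 and 58 counts and was 4.43-fold lower in GMTMS-iCMs than in MICFs (2.82 to 7.28) and 2.11-fold lower in the library labelled GMTMM (1.55 to 2.91). Its differences of -0.89 and -0.55 did not pass 1, but were under -1 in 4 and 3 of the 4 other scalings. The anchoring fibril chain Col7a1 had 91, 22 and 127 counts and was 2.67-fold lower in GMTMS-iCMs (1.66 to 4.47), with a difference of -0.36 that was under -1 in 3 of the 4 other scalings (down to -1.50), and of 0.35 in the library labelled GMTMM.

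For 11 chains, counts were at most 9 in each library and no difference is given. In the order of the libraries these were, beside Col2a1 and Col6a4, Col19a1 (4, 0 and 0), Col9a1 (1, 0 and 0), Col9a2 (0, 3 and 0), Col8a2 (2, 2 and 9), Col10a1 (2, 2 and 3), Col13a1 (4, 0 and 1), Col17a1 (1, 1 and 2), Col25a1 (0, 0 and 2) and Col26a1 (5, 0 and 1). A count of 0 allows up to 3 counts, or 0.253, 0.282 and 0.252 CPM (counts scaled to the library total). The chains of hypertrophic cartilage (Col10a1) and of epithelial anchoring (Col17a1) did not exceed this floor in any of the 3 libraries.

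Between the library labelled GMTMM, whose Sall4 and Mesp1 counts go against its label, and MICFs, 1 chain was higher and 0 were lower by over 1, where 2.12% of all genes were higher and 1.3% were lower. The chain was Col27a1. Among protein_coding genes 3.86% were higher and 1.99% were lower. The median difference over the 44 chains was 0.24, and it was 0.54 for fibrillar, 0.14 for basement membrane, 0.41 for FACIT and 0.11 for the other chains. The call of Col27a1 held in the 4 other scalings, but the picture for the abundant chains depended on the scaling, and above all on quantile normalization. The median difference of the 1000 most abundant genes from MICFs was -0.07 for this library and -0.12 for GMTMS-iCMs with it, and 0.49 and 0.50 without it. Over the 13919 genes with at least 1 FPKM in a library, CPM of the library total moved the median to -0.22 and -0.37. Col1a1 differed from MICFs by 0.74, and by 0.96 to 1.26 in the other scalings, and Col6a1 by 0.70, and by 1.00 to 1.31. On the deposited FPKM these were 2.40-fold (2.37 to 2.44) and 2.48-fold (2.43 to 2.53) higher than in MICFs. Of the scarce chains Col11a2 (3.12-fold, 2.39 to 4.12), Col4a3 (4.79-fold, 2.26 to 11.3) and Col4a4 (4.22-fold, 2.57 to 7.23) were higher on the FPKM, with differences of 0.94, 0.27 and 0.45 that were over 1 in 3 of the 4 other scalings. Col3a1 differed by 0.10 (0.36 to 0.66 in the other scalings). Col4a1, Col4a2, Col18a1, Col14a1 and Col11a1 differed by -0.27, -0.31, -0.28, -0.30 and -0.01 and turned to above 0 in at least 3 of the 4 other scalings, while Col4a5 and Col6a6 (0.06 and 0.23) turned to below 0 in one of them. Of the 33 chains with over 10 counts in a library, 24 were above 0 and 2 were below 0 in each scaling. The latter were Col8a1 (-0.83) and Col23a1 (-0.55).

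**Figure D3:**
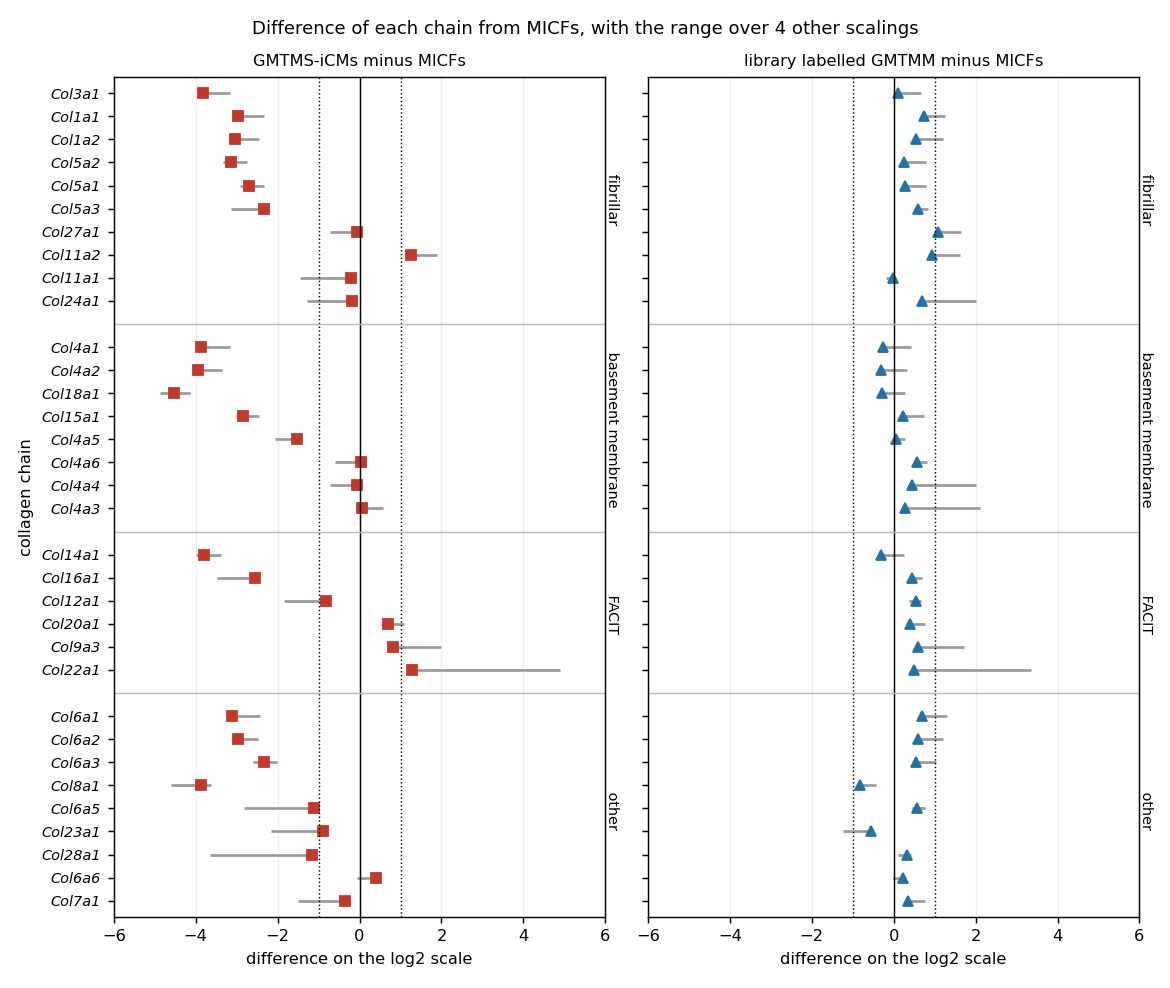
Difference of each of the 33 chains from MICFs on the log2 scale (horizontal axis), for GMTMS-iCMs (left, squares) and the library labelled GMTMM (right, triangles). Grey lines span the values over 4 other scalings and dotted lines mark -1 and 1, and Col18a1 lies farthest left at -4.52, while on the right only Col27a1 is past 1 in the main scale and 7 chains change sign with the scaling (Col4a1, Col4a2, Col4a5, Col18a1, Col14a1, Col11a1 and Col6a6).

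The sorted libraries were also compared with each other, since they went through the same gate. In GMTMS-iCMs 21 chains (47.7%) were lower and 0 were higher by over 1 than in the library labelled GMTMM, against 2.84% and 2.33% of all genes and 6.07% and 3.3% of protein_coding genes. Of the lower chains 7 were fibrillar, 5 basement membrane, 3 FACIT and 6 other, and all 21 were past 1 in the 4 other scalings. Col18a1 was 26.7-fold lower (23.6 to 30.2), Col3a1 14.4-fold lower (14.0 to 14.7) and Col8a1 13.8-fold lower (11.6 to 16.5). Col27a1 (3.89-fold, 3.16 to 4.82) and Col12a1 (4.34-fold, 3.65 to 5.19) were lower here although they did not pass 1 between GMTMS-iCMs and MICFs. Col22a1 was 2.94-fold higher in GMTMS-iCMs (2.10 to 4.16), with a difference of 0.80 that did not pass 1 but was over 1 in 3 of the 4 other scalings (up to 1.53). Col11a2 was 1.19-fold higher, with an interval of 0.970 to 1.47 that spans 1. Beside this, 9 of 10 endothelial and 5 of 6 fibroblast markers were lower and 7 of 8 cardiomyocyte and 5 of 8 macrophage markers were higher in GMTMS-iCMs than in the library labelled GMTMM, and their part in the collagen values was not tested.

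For several pairs of partner chains the ratio varied far less between libraries than the level. The level of such a ratio depends on the deposited gene lengths and is not read as a ratio of protein chains, whereas its change between libraries does not depend on them. The Col1a1 to Col1a2 ratio of FPKM was 1.89 (1.86 to 1.92), 2.09 (1.98 to 2.19) and 1.97 (1.94 to 1.99) in the usual order of libraries. In MICFs their counts were nearly equal (26135 and 26165), with gene lengths of 6563 and 12426 bases. Col4a1 to Col4a2, transcribed from the shared start region shown above, stood at 1.14 (1.12 to 1.16), 1.32 (1.24 to 1.41) and 1.21 (1.19 to 1.23), a small difference whose 3 intervals do not meet. For type VI the Col6a1 to Col6a2 ratio was 2.76, 2.94 and 2.95. Col6a3 to Col6a2 was 0.393 (0.381 to 0.406), 0.522 (0.478 to 0.570) and 0.345 (0.337 to 0.354), again without a meeting of intervals, and Col5a3 to Col5a2 was 0.211, 0.226 and 0.220. In GMTMS-iCMs the ratio of Col5a1 to Col5a2 was 1.12 (1.01 to 1.24), above the 0.831 (0.804 to 0.858) and 0.828 (0.805 to 0.851) of the other libraries.

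Intervals did not meet for some other ratios either. Col3a1 to Col1a1, a measure of type III against type I collagen, was 2.34 (2.31 to 2.37) in MICFs but 1.31 (1.26 to 1.37) after GMTMS and 1.54 (1.53 to 1.56) in the library labelled GMTMM, and the 3 intervals do not meet. Being within a library, this ratio does not depend on the scaling between libraries. Col4a5 to Col4a6 went from 9.26 (7.89 to 10.9) to 3.36 (2.66 to 4.29) and 6.37 (5.55 to 7.33). The head-to-head genes Col4a6 and Col4a5 start 1309 bases apart, much farther than Col4a1 and Col4a2. Col11a1 to Col11a2 was 0.362 (0.250 to 0.521), 0.0348 (0.0176 to 0.0622) and 0.121 (0.0851 to 0.168). Col5a1 to Col1a1 was 0.183, 0.170 and 0.131, lowest in the library labelled GMTMM. For Col4a3 to Col4a4, whose starts are 72 bases apart, the counts were too few to tell the libraries apart (0.456, 1.20 and 0.518, with intervals of 0.184 to 1.04, 0.410 to 3.57 and 0.335 to 0.785). Col8a1 was counted with almost none of its partner Col8a2, at 2, 2 and 9 counts.

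**Figure D4:**
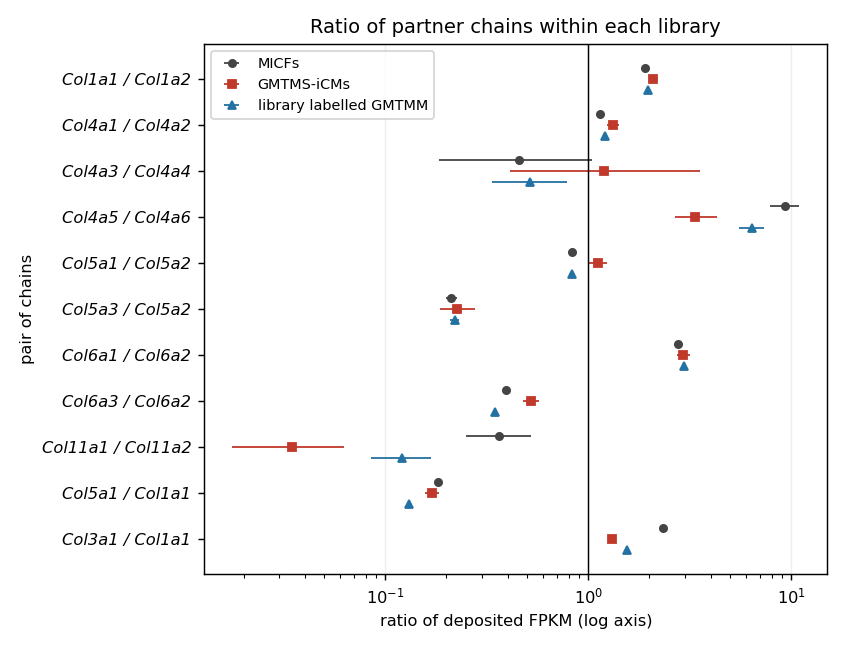
Ratio of deposited FPKM of 11 pairs of chains (horizontal log axis) within MICFs (circles), GMTMS-iCMs (squares) and the library labelled GMTMM (triangles), with 95% Clopper-Pearson intervals as bars that cover counting error only. The ratios of Col1a1 to Col1a2 lie between 1.89 and 2.09, whereas those of Col11a1 to Col11a2 run from 0.362 down to 0.0348.

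Genes that make, process and bind collagen were counted in lists. In GMTMS-iCMs against MICFs, 6 of 18 folding and hydroxylation genes, 5 of 8 propeptide processing genes, 5 of 6 crosslinking genes, 8 of 9 fibril organisers, 8 of 15 basement membrane partners, 6 of 9 collagen receptors and 5 of 12 collagen degradation genes were lower by over 1, and 2 degradation genes were higher, where 2.72% of all genes, 5.73% of protein_coding genes and 8.80% of genes with over 10 counts in a library were lower. Higher by over 1 were 3.13% of all genes, 5.13% of protein_coding genes and 9.06% of genes with over 10 counts in a library. The median differences of the lists were -0.65, -1.58, -2.55, -2.65, -1.24, -1.33 and -0.84 in the order given. Without quantile normalization they were -0.46, -1.52, -2.34, -2.06, -0.82, -1.18 and -0.75, so lower calls near the limit can depend on that step. Serpinh1, the collagen chaperone of the endoplasmic reticulum, had 280, 47.7 and 376 FPKM and a difference of -3.22, close to those of the type I chains. Plod2, a lysyl hydroxylase, had 17.9, 3.12 and 23.4 FPKM (-2.31), whereas P3h4 and Colgalt2 differed by -0.21 and 0.22. Adamts2, which removes the amino-terminal propeptide, had 40.9, 6.76 and 62.8 FPKM, and Bmp1, which removes the carboxy-terminal one, had 24.6, 4.83 and 47.3 FPKM. Among propeptide genes Tll1 (44, 0 and 19 counts) and Adamts3 (23, 26 and 89 counts) differed by -0.47 and 0.27. At 0.47 and 0.37 on the log2 scale in MICFs, neither could be lower by 1. Of the crosslinking enzymes, Pxdn, which links type IV collagen, differed by -3.26 and Loxl1 by -3.16, while Loxl3 and Loxl4 differed by -1.02 and -0.22.

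Among the fibril organisers, Sparc, a collagen-binding matrix protein, had 832, 91.1 and 1256 FPKM (-3.73 between GMTMS-iCMs and MICFs), fibronectin (Fn1) had 263, 40.2 and 378 FPKM (-3.30), Fmod differed by -1.96 and Comp by 0.27. For basement membrane partners, Nid1, the nidogen that joins laminin to type IV collagen, had 62.9, 6.11 and 66.8 FPKM (-3.55) and perlecan (Hspg2) 108, 19.4 and 99.4 FPKM (-2.98), while Lama3 differed by 0.48. Receptors ran from the integrin chains Itga11 (-2.23) and Itga1 (-1.74) to Lair1 (0.80), an inhibitory receptor of leukocytes, and Itga10 (0.84). Degradation genes divided. Mmp3 had 118, 13.0 and 168 FPKM and Mmp2 182, 28.8 and 241 FPKM, with differences of -3.60 and -3.23. By contrast the collagenase Mmp13 had 190, 5403 and 1803 counts, or 4.94, 218 and 57.7 FPKM, with differences from MICFs of 5.01 and 3.18, and the gelatinase Mmp9 had 29.2, 140 and 40.6 FPKM, with differences of 1.78 and 0.09. Macrophages and fibroblasts can both make these enzymes. All 8 macrophage markers had a higher FPKM in GMTMS-iCMs than in MICFs, from 1.85-fold for Lyz2 (1.84 to 1.86) and 1.93-fold for Csf1r (1.90 to 1.97) to 2.60-fold for Itgam (2.39 to 2.83) and 2.97-fold for Ptprc (2.85 to 3.09). Quantile normalization lowers the differences of such abundant genes, and the median over the 8 was 0.35 with it and 1.21 without it. The part of either cell type in the enzyme values was not tested.

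In the library labelled GMTMM 1 fibril organiser and 2 degradation genes were higher by over 1 than in MICFs, where 2.12% of all genes were higher and 1.3% lower, and no gene of these 7 lists was lower on the main scale, with median differences of 0.03 to 0.38, and of 0.23 to 0.66 without quantile normalization. The fibril organiser was Postn, made by activated fibroblasts, with 35.4, 8.08 and 103 FPKM and a difference of 1.06, and beside Mmp13 the other degradation gene was the protease inhibitor Timp1, with 62.0, 24.6 and 329 FPKM and a difference of 1.81. Both were named after their values were seen. Marker lists moved there as well. In this library 4 of 10 endothelial and 2 of 8 macrophage markers were lower and 4 of 8 smooth muscle and pericyte, 2 of 5 epicardial and 7 of 8 cardiomyocyte markers were higher by over 1 than in MICFs, again on the main scale. The lower calls depended in part on quantile normalization. The median difference was -0.84 with it and -0.27 without it for the endothelial markers, and -0.67 and -0.14 for the macrophage markers. On the deposited FPKM the macrophage marker Csf1r was 1.36-fold lower. Of the endothelial markers called, Cdh5 was 1.39-fold, Kdr 2.21-fold and Sox18 4.72-fold lower. In GMTMS-iCMs 2 smooth muscle and pericyte markers were lower and 2 higher, and 1 epicardial marker was higher. Smooth muscle and pericyte markers had a summed FPKM of 313, 414 and 714, with Pdgfrb at 84.5, 8.90 and 114 FPKM, Rgs5 at 16.1, 3.17 and 66.3, Cnn1 at 5.41, 15.8 and 13.0 and Myh11 at 17.1, 70.1 and 51.0 FPKM. Epicardial markers summed to 0.852, 3.57 and 15.5 FPKM, with Lrrn4 at 7, 87 and 478 counts, Upk3b at 23, 31 and 58 and Wt1 at 8, 6 and 128, and with Msln and Krt19 at 0 counts in GMTMS-iCMs. Their part in the collagen values was not tested.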

How the data were processed

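RNA-seq of 3 mouse libraries was used, 1 per condition. The submitters' processing notes name HISAT2 2.0.5 and the build mm9, whereas the coordinates in the tables are those of GRCm38: 98.3% of 54409 shared genes and 44 of 44 chains have the coordinates of GENCODE M21. The counting tool and the use of strand are not given in the sources used here. The authors deposited raw read counts per gene, not normalized, the FPKM of each gene and the gene length behind it in bases. The deposited FPKM had been scaled by DESeq2 size factors (0.811 for GMTMS-iCMs, 1.26 for MICFs and 1.02 for the other iCM library) and not by library totals. One column, under another abbreviation, was taken as MICFs since the remaining ones are named by cocktail.

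As in the study's methods, the FPKM were quantile-normalized over the 3 libraries (ties averaged) and transformed as log2 (value + 1). A difference over 1, the study's filter for clustering, was counted as higher or lower. With 1 library per condition there is no test, and intervals cover counting error only. No fold against 0 to 3 counts is given. Collagen chains with over 10 counts in a library are named with their values and the rest by their counts; of each other list the genes with the largest and smallest difference between GMTMS-iCMs and MICFs, up to 4 and with over 10 counts in a library, are named (some such genes are not reported here), beside the delivered factors, Myh6, the gate's gene, and markers at 0 counts, and further names are said to be chosen after their values were seen. The members and lists were chosen with earlier results of these data known. Steps were tested on simulated counts. Alternatives were another order of the log2 and quantile steps, no quantile step, a pseudocount of 0.1, TMM, DESeq2 size factors, CPM, a filter on FPKM, protein_coding genes only, a difference over 2 and thinned counts. edgeR 4.0.16 and DESeq2 1.42.0 ran in R 4.3.3, and SciPy 1.17.1, pandas 2.3.3, matplotlib 3.10.9 and numpy 2.4.6 ran in Python 3.11.15. Promoter sequences are from RefSeq. qRT-PCR, imaging and published samples were not analysed here.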

Additional observations from a re-analysis of the deposited data

How the results depend on the processing

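No paired analysis was possible because there was 1 library for each condition, so no library could be left out either. Recomputing the comparisons gave 93 values, of which 54 were close to the main result and 39 were not. Counts and shares among them have no sign, so a change of sign could not be seen there. The medians given below kept their sign. For GMTMS-iCMs against MICFs the count of higher chains (2 in the main scale) was 5 with a pseudocount of 0.1, 5 with TMM, 6 with DESeq2 size factors and 0 for a difference over 2, while the count of lower chains stayed within 1.5 times of 19. The median over the chains (-0.29) was -0.95 with a pseudocount of 0.1, -1.48 with TMM, -1.85 with DESeq2 size factors, -1.42 with CPM and -2.33 over the 30 chains left by the filter of at least 1 FPKM in a library, which removes scarce chains. For the library labelled GMTMM against MICFs the count of higher chains (1) was 6 without quantile normalization, 8 with a pseudocount of 0.1, 14 with TMM, 15 with DESeq2 size factors, 7 with CPM and 0 for a difference over 2. The count of lower chains (0) was 3, 4 and 1 with TMM, DESeq2 size factors and CPM. The median (0.24) was 0.37, 0.36, 0.71, 0.74 and 0.39 without quantile normalization, with a pseudocount of 0.1, TMM, DESeq2 size factors and CPM, and 0.38 with the filter. For GMTMS-iCMs against the library labelled GMTMM the count of higher chains (0) was 2, 2, 2 and 1 with a pseudocount of 0.1, TMM, DESeq2 size factors and CPM. The median (-0.79) was -1.75, -2.08, -2.03 and -2.02 in the same order, and -2.90 with the filter. The share of counts in collagen chains was 2.42%, 0.239% and 3.38% of protein_coding counts and 2.58%, 0.262% and 3.57% without the 10 most abundant other genes. Of 495 differences of single chains recomputed, 354 moved by more than counting error and 0 called ones changed sign. The quantile step and the pseudocount weigh on abundant and scarce chains by their construction, and other causes were not tested.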
